A study of Mus musculus with 10 samples.

Results

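The aryl hydrocarbon receptor (AHR) pathway was followed through 6 genes: the receptor Ahr, its nuclear partner Arnt, the repressor Ahrr, and the target genes Cyp1a1, Tiparp and Nqo1. They were taken by symbol from a table of raw read counts that lists 13932 genes. Of the 6, 5 have a row, and all 5 were among the 12477 genes tested. Ahrr has no row under its symbol or its identifier, so no value is given for it. The clearest pattern was in Cyp1a1, which stood between 4.72 and 16.2 CPM (read counts scaled by library size) in the 5 mutant libraries, at 30.6 and 66.2 CPM in the 2 wild-type females and between 8.37 and 10.3 CPM in the 3 wild-type males. None of the 5 genes passed the test between genotypes.

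The libraries were made from cells sorted from the ileum of mice, the small intestine's final stretch, as live, CD45- (not leukocytes) and EpCAM+ (epithelial). The 5 dIEC mice were H2-Ab1 fl/fl; Villin:Cre+, so that Cre, driven by the villin promoter of the intestinal epithelium, was to delete a gene for a beta chain of MHC class II. The 5 WT mice were H2-Ab1 fl/fl; Villin:Cre-, and thus carried the same floxed allele without Cre. Each genotype had 2 females and 3 males, and each library came from 1 mouse. The series text gives Cre- for both genotypes, and the sample labels, which give Cre+ for dIEC, were followed. By the labels Cre was present in dIEC mice only, so what it does by itself and what the deletion does cannot be told apart. No age is given in the sources used here.

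AHR is a ligand-activated transcription factor that waits in the cytoplasm with HSP90 and other chaperones. On binding a ligand, such as an indole made by gut bacteria from tryptophan, a plant compound of the diet or dioxin, it moves to the nucleus, pairs with ARNT and binds a short DNA element, the dioxin response element. Cyp1a1, a cytochrome P450 that also breaks down AHR ligands, is its best known target. Tiparp, an ADP-ribosyltransferase, and Ahrr, the AHR repressor, are targets that act back on the receptor. Nqo1, a quinone reductase, answers both to AHR and to the oxidative stress factor NRF2. In the intestine the receptor is known for barrier defence and for the metabolism of ingested compounds.

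The bases just upstream of the 3 target genes are shown because they differ in the core of the dioxin response element, GCGTG, which was searched on both strands. They are RefSeq windows on GRCm38.p6 (mm10), printed 5′ to 3′ on the strand of the gene, with bases that GENCODE places in an exon left out and each match in capitals. The Cyp1a1 window is chr9:57697363-57697612 on the plus strand, within the GENCODE span of the gene since another annotated transcript starts further upstream, the Tiparp window chr3:65528197-65528409 on the plus strand, and the Nqo1 window chr8:107403207-107403455 on the minus strand.
Cyp1a1: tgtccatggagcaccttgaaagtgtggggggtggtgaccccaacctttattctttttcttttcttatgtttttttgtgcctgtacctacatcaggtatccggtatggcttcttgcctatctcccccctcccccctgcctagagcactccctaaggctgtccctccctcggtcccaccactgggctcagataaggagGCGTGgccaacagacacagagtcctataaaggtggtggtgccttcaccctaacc
Tiparp: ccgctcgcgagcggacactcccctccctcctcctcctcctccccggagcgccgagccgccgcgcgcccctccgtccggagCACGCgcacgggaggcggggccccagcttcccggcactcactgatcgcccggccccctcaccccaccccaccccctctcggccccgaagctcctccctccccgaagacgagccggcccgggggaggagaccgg
Nqo1: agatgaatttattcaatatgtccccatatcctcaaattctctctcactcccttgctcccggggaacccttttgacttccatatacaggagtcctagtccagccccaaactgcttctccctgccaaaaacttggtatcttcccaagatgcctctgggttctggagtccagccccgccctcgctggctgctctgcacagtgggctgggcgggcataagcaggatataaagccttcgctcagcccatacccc
Cyp1a1 had 1 match, at bases -54 to -50 from its RefSeq start, and Tiparp had 1 on the opposite strand (so printed as CACGC), at -170 to -166. The 250 bases upstream of Nqo1 had none, and none of the antioxidant response element that NRF2 binds, searched as TGACNNNGC. Among 32851 RefSeq windows of 250 bases, 28.2% held GCGTG on either strand and 10.2% held TGACNNNGC, so a single match is common. Of the windows not printed, that of the partner Arnt held 1 match of GCGTG and 2 of TGACNNNGC, and that of Ahrr 3 of GCGTG. A match is a string of letters and not a measured binding site. Bases further upstream were not searched, so elements there would be missed.

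The libraries held 9174101 to 13484363 counts. The deleted gene followed the labels, with H2-Ab1 at 0.767 to 3.11 CPM in dIEC and 62.9 to 368 CPM in WT. Within WT it was at 62.9 and 130 CPM in females and 235 to 368 CPM in males. All 6 epithelial markers examined, among them Epcam and Vil1, were listed, summing to 9650 to 14219 CPM in dIEC and 9330 to 12420 CPM in WT, whereas the leukocyte gene Ptprc (CD45) stayed at or under 0.797 CPM. Of 7 leukocyte markers 2 have a row (Ptprc and Lcp1), with sums of 2.30 to 10.7 CPM in dIEC and 3.41 to 7.31 CPM in WT. The 2 WT females shared many departures from the rest. For 790 of 12477 tested genes (6.33%) both lay above each of the other 8, and for 327 (2.62%) both lay below. Those below included 5 of 6 goblet cell markers and all 4 tested haemoglobin genes. The 5 erythroid transcripts summed to 13.8 to 28.4 CPM in dIEC, 0 and 0.179 CPM in WT females, and 13.2 to 24.1 CPM in WT males, where 3 counts, the limit that a count of 0 allows, equal 0.25 CPM in WT female 8. The part of these differences in the values below was not tested.

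Neither the receptor nor its partner passed the test between genotypes. Ahr (ENSMUSG00000019256; mm10 chromosome 12, 35497974 to 35535038, minus strand), the receptor gene, was at 16.8 and 15.3 CPM in dIEC females, and in dIEC males at 15.9, 16.5 and 20.4 CPM. In WT it was at 14.3 and 25.2 CPM in females and 17.2, 17.3 and 14.5 CPM in males. The groups overlapped throughout, and the highest library was WT female 10. Ahr averaged 17.0 ± 1.98 CPM in dIEC and 17.7 ± 4.42 CPM in WT (SD, n = 5 each), a fitted log2 fold change of -0.056 (SE 0.18, 95% confidence interval -0.46 to 0.34; edgeR quasi-likelihood adjusted p = 0.9999). Its exons share bases with those of the opposite-strand gene Gm48236, and since the use of strand in the counting is not given in the sources used here, reads of the pair cannot be told apart. In bulk samples, fewer cells of a type and less RNA per cell cannot be told apart either, for any gene described here.

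Arnt (ENSMUSG00000015522; chromosome 3, 95434388 to 95497240, plus strand), whose product is also the partner of the hypoxia-inducible factors, was at 67.9 and 44.4 CPM in dIEC females, and in dIEC males at 53.9, 56.1 and 57.3 CPM. WT females had 48.5 and 59.0 CPM, and WT males 52.0, 60.0 and 46.4 CPM. Both the highest and the lowest of the 10 values came from dIEC females, and the WT values lay between them. The means were 55.9 ± 8.43 CPM in dIEC and 53.2 ± 6.12 CPM in WT (SD, n = 5 each), and the log2 fold change was 0.072 (SE 0.14, interval -0.23 to 0.38; edgeR adjusted p = 0.9999). For both genes the interval excludes a change of 2-fold in either direction.

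Of the targets, Cyp1a1 and Nqo1 varied more over the libraries than Ahr and Arnt, while Tiparp did not. Cyp1a1 (ENSMUSG00000032315; chromosome 9, 57687928 to 57703824, plus strand) was at 7.70 and 4.72 CPM in dIEC females, and in dIEC males at 6.80, 16.2 and 6.73 CPM. Values of 30.6 and 66.2 CPM were found in WT females and of 10.3, 8.54 and 8.37 CPM in WT males. The WT females exceeded each of the other 8 libraries, while WT males fell within the dIEC range. The counts behind these values ran from 65 to 738 per library. Cyp1a1 averaged 8.44 ± 4.49 CPM in dIEC and 24.8 ± 24.9 CPM in WT (SD, n = 5 each). The log2 fold change was -1.08 (SE 0.61, interval -2.44 to 0.28; edgeR adjusted p = 0.9999), which did not pass, and without the 2 WT females, an alternative chosen after the data were seen, it was 0.13 (SE 0.39).

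Tiparp (ENSMUSG00000034640; chromosome 3, 65528410 to 65555518, plus strand) was at 69.7 and 70.5 CPM in dIEC females, and in dIEC males at 81.7, 73.4 and 66.7 CPM. In WT it was at 90.6 and 86.8 CPM in females and 66.2, 78.0 and 61.3 CPM in males. Here too the WT females were the highest libraries, by a smaller margin than for Cyp1a1. The means were 72.4 ± 5.72 CPM in dIEC and 76.6 ± 12.7 CPM in WT (SD, n = 5 each), with a log2 fold change of -0.070 (SE 0.13, interval -0.35 to 0.21; edgeR adjusted p = 0.9999). Its exons share bases with the opposite-strand gene 4931440P22Rik, so its counts carry the same uncertainty as those of Ahr.

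Nqo1 (ENSMUSG00000003849; chromosome 8, 107388225 to 107403206, minus strand) was at 12.3 and 29.0 CPM in dIEC females, and in dIEC males at 25.0, 21.4 and 19.8 CPM. WT females had 62.0 and 20.5 CPM, and WT males 30.4, 19.9 and 26.2 CPM. The highest value was in WT female 8 alone, while WT female 10, which had the most Cyp1a1, lay near the dIEC median. The means were 21.5 ± 6.24 CPM in dIEC and 31.8 ± 17.4 CPM in WT (SD, n = 5 each), and the log2 fold change was -0.52 (SE 0.33, interval -1.26 to 0.21; edgeR adjusted p = 0.9999). Without WT female 8 it was -0.13 (SE 0.27).

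**Figure D1:**
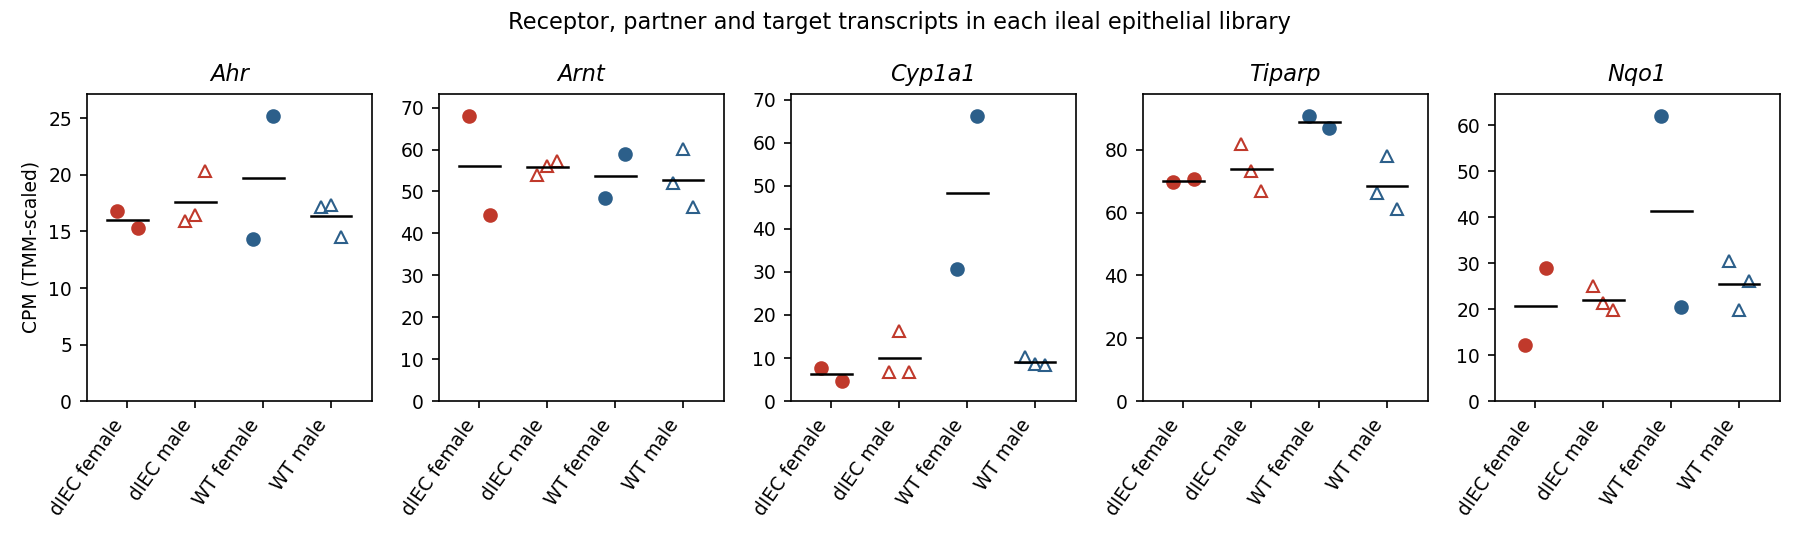
CPM (scaled by TMM library sizes, vertical axes starting at 0) of the 5 listed genes in each of the 10 libraries, split by genotype and sex, with filled circles for females, open triangles for males and horizontal lines for the mean of each split. Cyp1a1 is at most at 16.2 CPM in dIEC, at 30.6 and 66.2 CPM in WT females and at most at 10.3 CPM in WT males, while the Ahr and Arnt values of dIEC and WT overlap.

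Thus 0 of the 5 genes passed between genotypes in edgeR, where 2 of 12477 tested genes did (0.016%). None of the 5 was below an unadjusted p of 0.05, against 355 genes in all, and 0 passed in DESeq2, which called 4 genes. Exact two-sided permutation tests were made over the 252 assignments of libraries to genotypes, without regard to sex. They gave permutation p = 0.841 for Ahr, 0.603 for Arnt, 0.135 for Cyp1a1, 0.579 for Tiparp and 0.230 for Nqo1. The standard deviation of log2 CPM over the 10 libraries was 1.15 for Cyp1a1, more than for 98.9% of tested genes. For Nqo1 it was 0.60, more than for 82.1%. The other 3 genes were among the steadier ones, with 0.24 for Ahr, 0.19 for Arnt and 0.18 for Tiparp, more than for 28.0%, 15.1% and 14.0% of genes.

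The second comparison asked whether the sexes differed. Female over male, the log2 fold change was 0.074 (SE 0.18) for Ahr, 0.017 (SE 0.14) for Arnt, 1.06 (SE 0.62) for Cyp1a1, 0.15 (SE 0.13) for Tiparp and 0.32 (SE 0.33) for Nqo1. None of the 5 passed in edgeR or DESeq2 or reached an unadjusted p of 0.05, while 5 of 12477 genes passed in edgeR (0.0401%). Cyp1a1 averaged 27.3 ± 28.4 CPM in the 4 females and 9.50 ± 3.55 CPM in the 6 males (SD), and its log2 value was 0.45 without WT female 10 and 1.61 without dIEC female 9. The direction for Arnt turned under DESeq2 size factors (-0.0048) and with library size alone (-0.057). In a fit of the dIEC mice alone all 5 genes had negative values, of which the Cyp1a1 value was -0.73, while in a fit of the WT mice alone Cyp1a1 was at 2.39. In the joint fit of the 4 splits the Arnt value in dIEC was positive, at 0.0074.

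The third comparison asked whether the genotype difference itself was unequal in the sexes. In females Cyp1a1 averaged 6.21 ± 2.11 CPM in dIEC and 48.4 ± 25.1 CPM in WT (SD, n = 2 each), and in males 9.92 ± 5.46 CPM in dIEC and 9.07 ± 1.07 CPM in WT (SD, n = 3 each). The log2 fold change of dIEC over WT was -2.97 in females (SE 0.54, interval -4.19 to -1.76) and 0.13 in males (SE 0.42, interval -0.81 to 1.07). The interaction, the value in females minus that in males, was -3.10 (SE 0.67, interval -4.61 to -1.60). By unadjusted p (0.00115) it ranked 10th of 12477 genes in edgeR, but it did not pass after adjustment (edgeR adjusted p = 1.0). DESeq2 called it, with a log2 value of -3.08 and an adjusted p of 0.0120. The 2 tests thus gave different calls for Cyp1a1.

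The other 4 genes did not pass in either tool. The interaction was -0.45 (SE 0.24) for Tiparp, -0.78 (SE 0.66) for Nqo1, -0.41 (SE 0.37) for Ahr and -0.019 (SE 0.30) for Arnt. All 5 values were negative, although Arnt turned positive under other scalings (0.0021 with DESeq2 size factors, 0.018 with library size alone). Over all tested genes edgeR called 1 interaction (0.00801%), which was the haemoglobin gene Hbb-bs, and 262 genes had an unadjusted p under 0.05. DESeq2 called 16 of 10541 genes (0.152%), against 1 of the 5 genes here. In the joint fit of all 10 libraries the female contrast of edgeR called 5 of 12477 genes (0.0401%) and the male contrast 2 (0.016%), and none was among the 5 genes. A fit of the 4 female libraries by themselves called 0 genes. In the joint fit Cyp1a1 was the 1 gene of them with an unadjusted p under 0.05 in females (edgeR adjusted p = 0.351), and 0 had one in males. Only 2 libraries per genotype stand behind the female values, and the WT pair was the one in which haemoglobin transcripts were at or near 0.

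**Figure D2:**
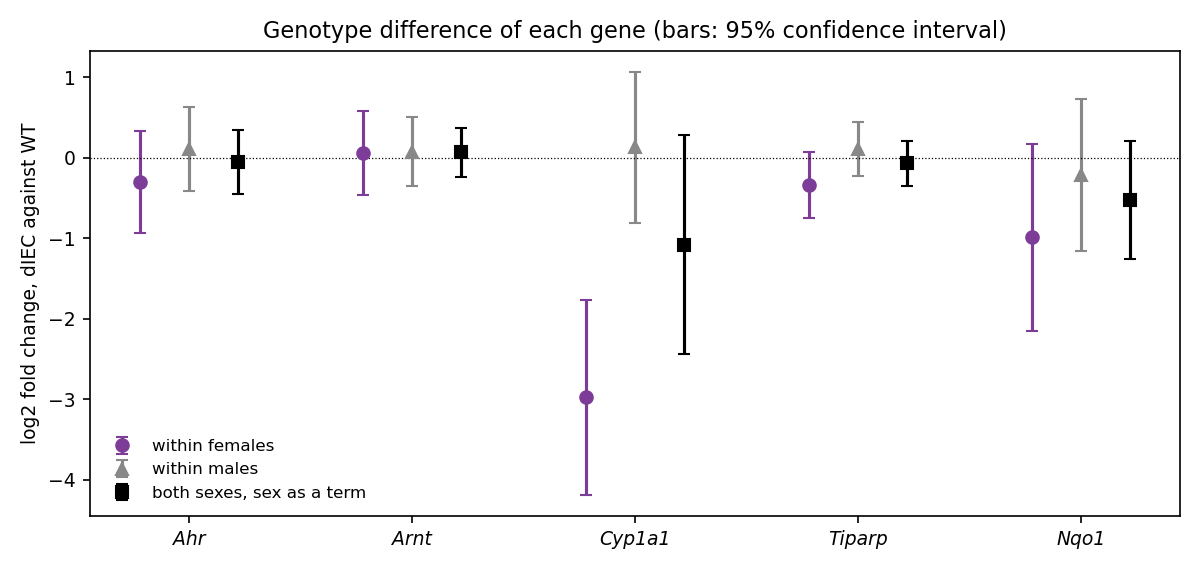
Log2 fold change of dIEC against WT (vertical axis) for the 5 listed genes, within females, within males and in both sexes with sex as a term, with bars for the 95% confidence interval of edgeR's fit. Cyp1a1 is at -2.97 in females and 0.13 in males, and its intervals in the 2 sexes do not overlap, while those of the other 4 genes do.

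Levels can be set against each other between genes once divided by the length of their exons. The mean over the 10 libraries was 17.2 ± 8.67 CPM per kb for Nqo1, 17.1 ± 2.19 for Tiparp, 6.81 ± 0.89 for Arnt, 5.96 ± 6.81 for Cyp1a1 and 2.81 ± 0.53 for Ahr (SD, n = 10). Nqo1 and Tiparp did not differ beyond their spread. Cyp1a1 lay above Arnt in both WT females and below it in every other library, and the Arnt median was 6.87. Tiparp, at 14.1 CPM per kb or more, was above Arnt, at 8.48 or less, in all 10 libraries. Cyp1a1 had the widest range, 1.69 to 23.7 CPM per kb, with a median of 3.03, and in 6 of the 10 libraries it lay inside the range of Ahr, 2.33 to 4.09.

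Whether the receptor, partner and targets varied together was examined over the 10 pairs of the 5 genes, as correlations of log2 CPM over the 10 libraries with permutation p-values adjusted by Benjamini-Hochberg over the pairs. No pair passed by Pearson's r, and 2 had an unadjusted permutation p under 0.05. Cyp1a1 and Tiparp had r = 0.66 (permutation p = 0.0367, adjusted 0.184) and Spearman's rho = 0.45 (permutation p = 0.193, adjusted 0.482). Without the 2 libraries farthest from the Cyp1a1 median, which were the WT females, r was -0.0081, so the relation rests on those libraries. Cyp1a1 and Nqo1 had r = 0.27 (permutation p = 0.418, adjusted 0.597; rho = 0.21, permutation p = 0.561, adjusted 0.902), and -0.084 without the same libraries. Tiparp and Nqo1 had r = 0.36 (permutation p = 0.312, adjusted 0.520; rho = 0.091, permutation p = 0.811, adjusted 0.902) and -0.13 without them. With library size alone in place of TMM, Tiparp and Nqo1 had r = 0.81 and passed (permutation p adjusted over the pairs 0.0431). Over the other 8 libraries and with TMM, r lay between -0.13 and -0.0081 for the 3 pairs of targets. In dIEC male 3, which had the most Cyp1a1 among dIEC, Tiparp (73.4 CPM) and Nqo1 (21.4 CPM) lay near the middle of their group.

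No relation of the receptor passed. Ahr and Cyp1a1 had r = 0.48 (permutation p = 0.152, adjusted 0.381; rho = 0.13, permutation p = 0.732, adjusted 0.902), and -0.27 without the 2 libraries farthest from the Ahr median. Ahr and Arnt had r = 0.53 (permutation p = 0.113, adjusted 0.378) and rho = 0.73 (permutation p = 0.0202, adjusted 0.101), with r = 0.72 on leaving out the 2 farthest libraries. Ahr and Nqo1 had r = -0.45 (permutation p = 0.194, adjusted 0.388) and rho = -0.66 (permutation p = 0.0441, adjusted 0.147), with r = -0.64 without those 2 libraries. The remaining pairs, Ahr and Tiparp, Arnt and Cyp1a1, and Arnt and Tiparp, had r of 0.20, 0.14 and 0.13 (permutation p = 0.589, 0.686 and 0.713, adjusted 0.713 each) and rho of -0.030, 0.18 and 0.18 (permutation p = 0.946, 0.632 and 0.635).

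The relation with the largest r in size of the 10 pairs was negative. Arnt and Nqo1 had r = -0.75 (permutation p = 0.0114, adjusted 0.114) and rho = -0.87 (permutation p = 0.00222, adjusted 0.0222), the one pair to pass by rank, and r was -0.70 without the 2 libraries farthest from the Arnt median. Without both WT females r was -0.88. With library size alone in place of TMM r was -0.26. The mean log2 CPM of 10 proliferation genes was lowest, at 3.43, in dIEC female 7, which had the most Arnt and the least Nqo1, and highest, at 6.07, in dIEC female 9, which had the least Arnt. In WT female 8, which had the most Nqo1, it was 4.97, within the range of the other libraries. For mature enterocyte genes the same mean was highest in dIEC female 7, at 11.6, and lowest in dIEC female 9, at 9.98. The part of these scores in the relation was not tested.

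**Figure D3:**
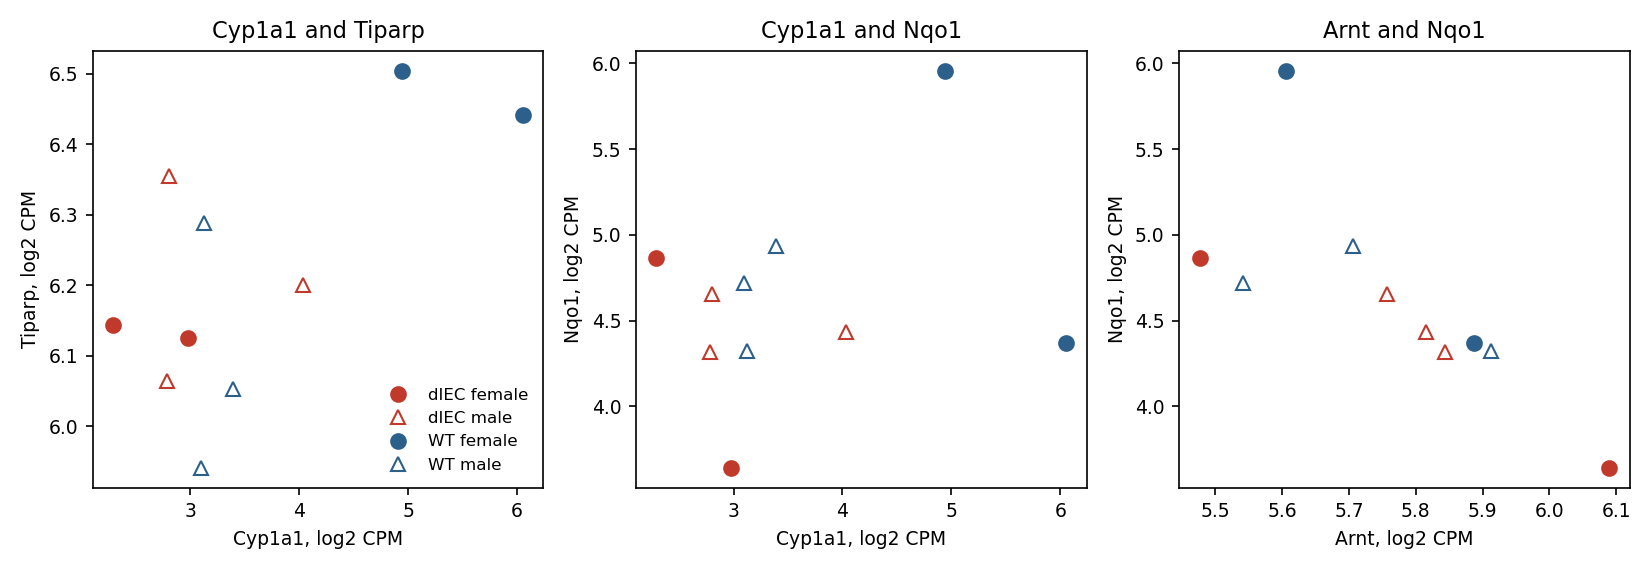
Log2 CPM of 3 pairs of genes in the 10 libraries, with axes that do not start at 0, red for dIEC, blue for WT, filled circles for females and open triangles for males. In the first 2 panels the WT females lie at the right, apart from the other 8 libraries, and in the third Nqo1 is lower where Arnt is higher (rho = -0.87).

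The rest of the pathway was read from lists of genes by role, each beside the same values over all tested genes, of which 52.6% were higher in dIEC with a median log2 fold change of 0.013. No member of the lists described here passed between genotypes in edgeR or DESeq2. The list of cytosolic partners that hold AHR before it binds a ligand had 1 gene higher and 3 lower of 4 tested, with a median of -0.092 and 0 at an unadjusted p under 0.05. Ptges3, which encodes the HSP90 co-chaperone p23, was at 18.8 ± 7.51 CPM in dIEC and 18.9 ± 5.12 CPM in WT. Hsp90ab1, an HSP90 gene, was at 482 ± 180 CPM in dIEC and 547 ± 176 CPM in WT (SD, n = 5 each). Hsp90aa1 (log2 fold change -0.25, SE 0.33) and the kinase gene Src (0.18, SE 0.30) did not pass either. No gene of that list had both WT females above or below the other 8 libraries.

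Of 10 further AHR target genes, 6 were listed and tested, while Cyp1a2, Cyp1b1, Aldh3a1 and Gsta2 have no row and were not analysed here. Between genotypes 1 was higher and 5 were lower in dIEC, with a median of -0.29. In the joint fit the median was -0.66 in females (2 higher, 4 lower) and -0.054 in males (3 higher, 3 lower). Across both sexes 1 gene had an unadjusted p under 0.05. That gene was Gsta1, a glutathione S-transferase. It was at 4.48 and 6.93 CPM in dIEC females, and in dIEC males at 5.23, 5.88 and 8.44 CPM. Values of 51.9 and 19.1 CPM were found in WT females and of 11.9, 7.82 and 6.88 CPM in WT males. As with Cyp1a1, both WT females lay above the other 8 libraries, but here WT female 8 had the higher value. The log2 fold change was -1.32 (SE 0.47) between genotypes, and the interaction was -2.18 (SE 0.64; DESeq2 adjusted p = 0.381). Without WT female 8 these values were -0.86 and -1.23.

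Ugt1a6a, a UDP-glucuronosyltransferase of drug conjugation, was at 300.2 and 299.5 CPM in dIEC females, and in dIEC males at 333, 345 and 370 CPM. In WT it was at 701 and 509 CPM in females and 378, 348 and 301 CPM in males. Both WT females were again the highest libraries. Its interaction of -1.04 (SE 0.30) did not pass (DESeq2 adjusted p = 0.0892). Ugt1a6b stood at 96.23% to 98.43% of Ugt1a6a in every library, so the pair cannot be counted as separate results. Whether reads of other genes of the Ugt1a family enter these counts was not examined. Nfe2l2, which encodes NRF2, was at 224 ± 16.2 CPM in dIEC and 257 ± 24.5 CPM in WT (SD, n = 5 each; log2 fold change -0.19, SE 0.12). Rnf43 and Znrf3, membrane ubiquitin ligases that dampen Wnt signalling, did not have both WT females at either end.

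In all, the WT females were the 2 highest libraries for 2 of the 5 genes followed here and for 4 of the 6 further targets, against 6.33% of tested genes. This way of reading the libraries was chosen after the values were seen, and the Ugt1a6 pair enters it as 2 genes. Nqo1, Ahr and Arnt did not show it.

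**Figure D4:**
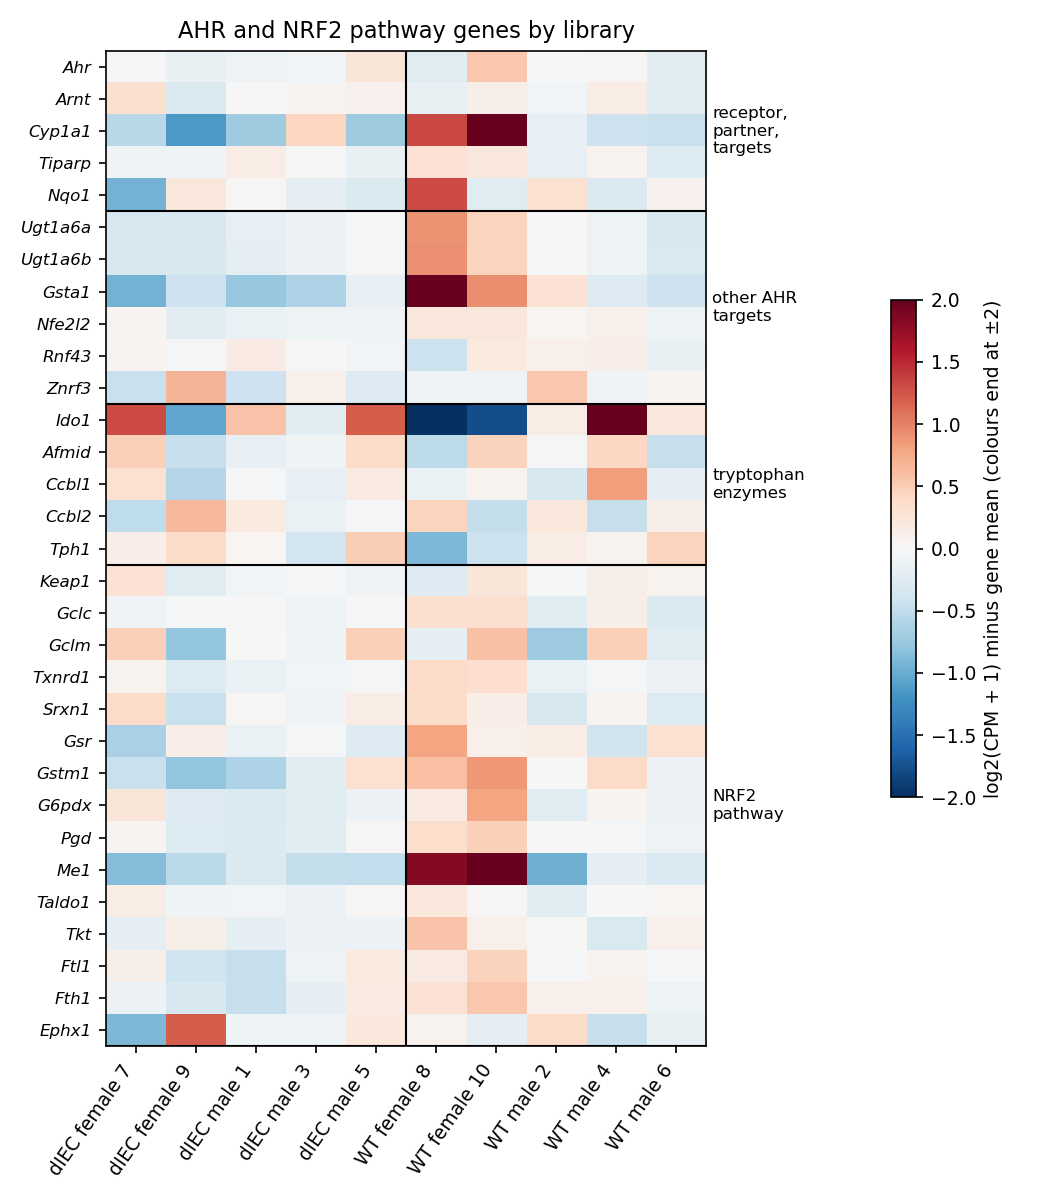
Log2(CPM + 1) minus the mean of each gene over the 10 libraries (colours end at 2 either way) for the tested receptor, partner and target genes, further AHR targets, tryptophan enzymes and NRF2 pathway genes, with dIEC left and WT right of the vertical line. The WT female columns are red for Cyp1a1, Gsta1, the Ugt1a6 pair and Me1, and blue for Ido1.

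Enzymes that turn tryptophan into AHR ligands or draw on the same pool were not called. Of 11 listed by name, 6 have a row and 5 were tested, with 4 higher and 1 lower in dIEC, a median of 0.080 and 0 at an unadjusted p under 0.05. Ido1, which opens the kynurenine path, was at 81.0 and 15.2 CPM in dIEC females, and in dIEC males at 48.2, 27.8 and 76.3 CPM. WT females had 4.67 and 8.79 CPM, and WT males 35.8, 145 and 37.9 CPM. The WT females thus had the lowest Ido1 of the 10 libraries, as they had for 2.62% of tested genes. This reading, here and for the genes below, was chosen after the values were seen. The Ido1 interaction of 3.35 (SE 1.18) did not pass (edgeR adjusted p = 1.0, DESeq2 adjusted p = 0.435), and it was 1.69 without dIEC female 7. Goblet cell marker sums were also lowest in the WT females (6636 and 5975 CPM). They were highest in WT male 4 (52206 CPM), which had the most Ido1. The part of these sums in the Ido1 values was not tested. Tph1, the serotonin enzyme of enterochromaffin cells, was at 4.03 to 8.18 CPM in dIEC, 2.50 and 3.85 CPM in WT females and 5.89 to 7.90 CPM in WT males, so that it too was lowest in the WT females. Of 6 enteroendocrine markers, 2 had both WT females below the other 8 libraries, against 2.62% of tested genes. These were Chga, at 34.8 to 59.1 CPM in dIEC, 27.9 and 23.3 CPM in WT females and 42.2 to 51.7 CPM in WT males, and Chgb, both granule proteins of endocrine cells. Their part in the Tph1 values was not tested. Ccbl1 and Ccbl2, kynurenine aminotransferases, had log2 fold changes of -0.15 (SE 0.26) and 0.080 (SE 0.32).

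NRF2 pathway genes, which share Nqo1 with AHR, had 3 members higher and 13 lower in dIEC of 16 tested, with a median of -0.20. Across both sexes 1 had an unadjusted p under 0.05. In the joint fit 2 were higher and 14 lower in females (median -0.41), and 7 higher and 9 lower in males (median -0.10). The medians over all tested genes were 0.042 in females and -0.010 in males. In 7 of the 16, among them Nfe2l2 itself, both WT females lay above the other 8 libraries, against 6.33% of tested genes. This reading too was chosen after the values were seen, and Nfe2l2 is also counted among the further AHR targets above. Me1, the cytosolic malic enzyme that makes NADPH, was at 5.98 and 7.73 CPM in dIEC females, and in dIEC males at 9.42, 8.15 and 8.01 CPM. Values of 44.3 and 61.7 CPM were found in WT females and of 5.49, 10.2 and 9.31 CPM in WT males. As for Cyp1a1, both WT females exceeded the other 8 libraries and the WT males overlapped dIEC. The interaction was -2.98 (SE 0.42), which DESeq2 called (adjusted p = 8.10e-07) and edgeR did not (adjusted p = 0.208), and Me1 alone of the list was called by edgeR in the female contrast of the joint fit. In the fit of the female libraries by themselves it was not called (log2 fold change -2.94, SE 0.39; edgeR adjusted p = 0.660). Gstm1, another glutathione S-transferase, was at 30.7 ± 10.1 CPM in dIEC and 50.1 ± 14.5 CPM in WT (SD, n = 5 each; log2 fold change -0.68, SE 0.26). In males the Gstm1 means were 34.8 CPM in dIEC and 40.8 CPM in WT. The Gstm1 interaction of -1.15 (SE 0.40) did not pass. The NADPH enzyme Pgd (-0.27, SE 0.14) and the ferritin heavy chain Fth1 (-0.36, SE 0.17) did not pass between genotypes. Gstm1, Pgd and Fth1 were among the 7 genes with both WT females above the other 8 libraries.

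The genes most like each of the 5 over the 10 libraries were taken by Pearson's r of log2 CPM among 9326 genes with a mean of at least 5 CPM. They are given as a description, since the libraries differ in levels of cell type markers and are shared by all points. Picking the highest of 9326 values over 10 libraries also gives a high r by selection alone. For Cyp1a1, where the WT females lie far above the rest, r without them was not computed. For Cyp1a1 the closest was Gpi1, a glycolytic isomerase (r = 0.965), followed by Mapre2 (0.898), a microtubule-binding protein, and Cpox (0.894), an enzyme of haem synthesis. For Nqo1 they were Akr1c19 (0.991) and Akr1c13 (0.988), aldo-keto reductases, and Ssr3 (0.983), a subunit at the protein translocation channel. For Tiparp they were Cox11 (0.944), Ptgr2 (0.925) and Tmem30a (0.918). For Arnt they were Daxx (0.980), Spg11 (0.977) and Btnl2 (0.974), and for Ahr they were Rab3a (0.889), Rogdi (0.887) and Epb4.1 (0.877). No gene stood on more than 1 of these 5 short lists.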

How the data were processed

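Total RNA of sorted cells from 10 mice was made into ribosome-depleted, stranded libraries, per the labels' protocols. The authors deposited a table of raw counts per gene. The aligner was Novoalign and the build mm10, per the submitters' processing notes. Which program counted the reads, with which annotation and whether by strand, is not given in the sources used here. Every listed gene reaches at least 10 counts in 1 library, so a gene without a row cannot be called absent from the cells.

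From these counts edgeR 4.0.16 (R 4.3.3) kept 12477 of 13932 genes (89.6%, filterByExpr), scaled by TMM, and fitted robust quasi-likelihood models with sex and genotype, or with their product as well. A Benjamini-Hochberg adjusted p under 0.05 over all tested genes was called. Standard errors are log2 fold changes divided by the root of the F statistic. Log2 CPM used a prior count of 2. Pairs were tested with 100000 permutations, or exactly where 9 or 8 libraries were left. Alternatives were DESeq2 1.42.0, limma 3.58.1 voom, other scalings, filters and covariates, subsets and leaving out each library; the code was tested on simulated counts.

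The members, lists and alternatives were chosen with earlier results of these data known. From each list up to 4 genes with the smallest p between genotypes are named, and others, Rnf43 and Znrf3 among them, were named after their values were seen. List genes were matched by Ensembl identifier, and a gene left out of the lists is not reported here. Positions come from GENCODE M21 on GRCm38, and upstream sequences from RefSeq, where the table had no entry for Ahr. Within groups, every pair of libraries differed by more than sampling noise (chi-square per degree of freedom 15.5 to 149), and all 10 were kept as separate samples. Totals of 9174101 to 13484363 counts set the counting error, to which the spread between mice adds.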

Additional observations from a re-analysis of the deposited data

Results flagged for a closer look

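Among the 20 groups of 4 to 6 libraries examined for a value far from the rest (5 genes, by genotype and by sex), 4 held one, where chance gives about 1.0. Ahr in dIEC male 5, at 20.4 CPM, lay above the next dIEC library at 16.8 CPM. Cyp1a1 in dIEC male 3, at 16.2 CPM, lay above the next dIEC library at 7.70 CPM. Ahr in WT female 10, at 25.2 CPM, lay above the next WT library at 17.3 CPM. Nqo1 in WT female 8, at 62.0 CPM, lay above the next WT library at 30.4 CPM. No library held more than 1 of these values.

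The genotype by sex interaction of Cyp1a1, at -3.10 on the log2 scale, was called by DESeq2 (adjusted p = 0.0120) and not by edgeR (adjusted p = 1.0). Limma voom with sample weights did not call it either (-3.16, SE 1.14). The female values rest on 2 libraries per genotype.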

How the results depend on the processing

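No paired analysis was made. The dIEC libraries are numbered 1, 3, 5, 7 and 9 and the WT libraries 2, 4, 6, 8 and 10. Taken as 1 and 2 through to 9 and 10, neighbours are a dIEC and a WT mouse of the same sex. The labels state no pairing, and none was tested. Of 1121 alternative values, 1006 were scored as unchanged. For fold changes and correlations this meant the same direction and side of the threshold, and for counts of calls an equal or similar count. Depth limits the genes with few counts, such as Cyp1a1, with as few as 65 in a library, and P4ha1, with at most 79. A fit without the 2 WT females, added after the data were seen, leaves no female WT library, so sex and genotype rest on the male and dIEC libraries. Values that changed are given here, and the cause was not tested except where fewer libraries entered the fit.

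DESeq2 called 4 genes between genotypes, 9 between sexes and 16 interactions, 1 of them among the 5 genes (Cyp1a1), and gave Arnt -0.0060 for female over male. With DESeq2 size factors in edgeR, Arnt was -0.0048 for female over male and 0.0021 for the interaction. With library size alone, Arnt was -0.057 and 0.018, Ptges3 was 0.033 for dIEC over WT, 0 interactions were called, 1 pair passed (Tiparp and Nqo1, r = 0.81), and r was 0.073 for Ahr and Nqo1, -0.19 for Arnt and Cyp1a1 and -0.063 for Arnt and Tiparp. Limma voom with sample weights called 0 interactions and gave, for dIEC over WT, 0.062 for Ahr, 0.10 for Tiparp, 0.040 for Hif1a, -0.30 for Tph1, 0.12 for Ccbl1 and -0.18 for Ccbl2, and for female over male -0.21 for Nqo1. With the proliferation score as covariate 5 genes were called between genotypes, and Ccbl2 was -0.014.

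In males alone dIEC over WT was 0.10 for Ahr, 0.13 for Cyp1a1, 0.11 for Tiparp, 0.016 for Hif1a, 0.037 for Me1, 0.016 for Ugt1a6b, 0.025 for Ugt1a6a, -0.17 for Tph1 and -0.49 for Ido1. In a fit of the female libraries alone 0 genes were called, Hsp90ab1 was 0.068 and Ptges3 0.058. In WT alone 0 genes were called between sexes. In dIEC alone 0 were called, and female over male was -0.17 for Ahr, -0.038 for Arnt, -0.73 for Cyp1a1, -0.11 for Tiparp and -0.10 for Nqo1. Without both WT females, dIEC over WT was 0.10 for Ahr, 0.13 for Cyp1a1, 0.11 for Tiparp, 0.014 for Hif1a, 0.035 for Me1, 0.016 for Ugt1a6b, 0.025 for Ugt1a6a, -0.17 for Tph1 and -0.50 for Ido1. Female over male was then -0.16 for Ahr, -0.029 for Arnt, -0.73 for Cyp1a1, -0.11 for Tiparp and -0.10 for Nqo1.

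Of the pairs, 1 passed without both WT females (Arnt and Nqo1), where r was -0.0081 for Cyp1a1 and Tiparp, -0.084 for Cyp1a1 and Nqo1 and -0.13 for Tiparp and Nqo1. These 3 values were the same without the 2 libraries farthest from the median of the first gene, which also gave -0.27 for Ahr and Cyp1a1 and -0.14 for Ahr and Tiparp. With genotype and sex fitted out, Cyp1a1 and Nqo1 had r = -0.0066.

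On leaving out 1 library at a time, dIEC over WT ran from -0.14 to 0.12 for Ahr, -0.029 to 0.16 for Arnt, -0.66 to -0.13 for Nqo1, -0.15 to 0.35 for Src, -0.33 to 0.18 for Ptges3, -0.0034 to 1.45 for Ido1, -0.32 to 0.12 for Ccbl1 and -0.19 to 0.27 for Ccbl2. Cyp1a1 ran from -1.55 without dIEC male 3 to -0.59 without dIEC female 9. Female over male ran from -0.15 to 0.15 for Ahr, -0.11 to 0.13 for Arnt, 0.45 to 1.61 for Cyp1a1, 0.046 to 0.21 for Tiparp and -0.21 to 0.58 for Nqo1. The interaction ran from -0.72 to 0.052 for Ahr, -0.36 to 0.26 for Arnt and -1.54 to 0.29 for Nqo1, with 0 to 1 genes called, and that of Cyp1a1 from -3.52 to -2.44. In these fits the lone female left in a group is assumed to vary like the others. The pairs passing numbered 0 to 1 (1 without WT female 8, Arnt and Nqo1). Pearson's r ran from -0.35 to 0.76 for Ahr and Cyp1a1, -0.29 to 0.53 for Ahr and Tiparp, -0.081 to 0.32 for Arnt and Cyp1a1, -0.11 to 0.38 for Arnt and Tiparp, -0.12 to 0.59 for Cyp1a1 and Nqo1 and -0.16 to 0.48 for Tiparp and Nqo1.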

Other observations

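ARNT also pairs with the hypoxia-inducible factors, and its relatives include the clock genes. Of 9 tested genes of that family (bHLH-PAS) and its coactivators, 8 were higher and 1 was lower in dIEC (median log2 fold change 0.19), and none passed in edgeR or DESeq2, with 1 at an unadjusted p under 0.05. That gene was the clock gene Arntl, at 94.9 ± 10.4 CPM in dIEC and 78.9 ± 5.39 CPM in WT (SD, n = 5 each; log2 fold change 0.27, SE 0.12). Its partner Npas2 (0.39, SE 0.31), Arnt2 (0.55, SE 0.41) and Hif1a (-0.24, SE 0.18) did not pass.

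Of 15 tested target genes of the hypoxia-inducible factors, 4 were higher and 11 lower in dIEC (median -0.097). In the joint fit the median was -0.24 in females and -0.016 in males. Across both sexes none passed in edgeR or DESeq2, and 1 had an unadjusted p under 0.05. That gene was Aldoa, a glycolytic aldolase, at 246 ± 19.4 CPM in dIEC and 337 ± 82.3 CPM in WT (SD, n = 5 each; log2 fold change -0.43, SE 0.16). Ldha, lactate dehydrogenase, was at 890 and 788 CPM in dIEC females, 708 to 849 CPM in dIEC males, 1286 and 1337 CPM in WT females and 840 to 864 CPM in WT males. Both WT females lay above the other 8 libraries for 4 of the 15 (Ldha, Aldoa, Pgk1 and Egln1) and below them for Ndrg1, against 6.33% of tested genes above and 2.62% below, a reading chosen after the values were seen. P4ha1 (-0.51, SE 0.35) and Pgk1 (-0.21, SE 0.18) did not pass between genotypes.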
